A study of Mus musculus with 21 samples.

Results

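Hippocampal poly-A RNA was compared between maternal separation (MS) and standard rearing (SR) in the male mice whose animal numbers lie below 56000. The mice were chosen by animal number alone, and make up 15 of the 21 libraries of the series, with 1 library per mouse. They were C57BL/6, wild type, and 10 weeks old. There were 6 MS mice (54970 to 54972 and 55066 to 55068) and 9 SR mice (54950 to 54952, 55000 to 55002 and 55062 to 55064).

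In MS, the whole litter was parted from its dam for 4 h a day between postnatal days 10 and 17, alternately in the light and the dark phase, and the home cage held less nesting material over those days. SR litters were not separated. All litters had been balanced for sex across dams at birth, whole nests had been given to 1 rearing condition, and after weaning the mice lived with littermates of their own sex. Each set of 3 consecutive animal numbers held 1 condition only, so 2 MS sets stood against 3 SR sets. The labels name no nest, and the p-values below treat mice as independent. Rearing and nest of origin therefore cannot be told apart if a set is a nest.

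MS 54971 was left out of the comparison, leaving 5 MS and 9 SR mice. Its library held 0.696 CPM (counts per 1e+06 of the scaled library size) of Dsp, a dentate granule cell gene, against 53.7 to 139 in the other 14 mice. Penk, a gene of striatal medium spiny neurons, stood at 420 CPM there and at 131 or below elsewhere. Smaller striatal signals were present in MS 55066 and SR 55001, where 15 striatal genes summed to 1086 and 743 CPM against 263 to 364 in the other 12 mice. Dentate, CA pyramidal and interneuron markers were present in all 14 libraries, as hippocampal tissue should hold them. Total counts ran from 17276810 to 21801385 in MS and from 18368519 to 25183841 in SR. The most alike of the replicates, MS 55068 and MS 54972, still differed by more than counting noise (chi-square over its degrees of freedom 3.58). No replicate was therefore a copy of another, which does not bear on whether mice of 1 number set are independent.

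The account is ordered by 5 systems, taken from 45 gene lists that together held 57 of the higher and 13 of the lower genes reported below. Oxidative phosphorylation (OXPHOS) makes ATP in mitochondria through respiratory complexes I to IV and ATP synthase, and its proteins are encoded partly in the nucleus and partly in the mitochondrial genome. Cytosolic ribosomal proteins build the translation machinery. Chaperones of the endoplasmic reticulum (ER) fold secreted and membrane proteins, and their genes are induced together when unfolded protein accumulates. Glutamate receptors and their scaffolds carry excitatory transmission, for which the hippocampus, a centre of memory and of feedback on stress hormones, is well known. The choroid plexus, an epithelium that makes cerebrospinal fluid, lies against the hippocampus and can be carried along in dissection.

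MS hippocampi held more mRNA of a number of nuclear-encoded OXPHOS subunits, ribosomal proteins and ER chaperones. They held less mitochondrially encoded mRNA, and less mRNA of several synapse genes such as Grin1 and Dlg4. Of 18395 genes tested with the edgeR quasi-likelihood test (Benjamini-Hochberg adjusted p under 0.05), 159 were higher in MS (0.864% of genes tested) and 71 were lower (0.386%), 230 in all (1.25%). At an unadjusted p under 0.05, 1753 genes were higher (9.53%) and 1306 lower (7.10%). Changes were mostly small, since 69 of the 159 higher genes and 5 of the 71 lower genes passed 1.3-fold. Over all genes tested the median log2 fold change was -0.001. In 53 of the 159 higher genes every MS mouse lay above every SR mouse, a separation found in 85 of all genes tested (0.462%). In 47 of the 71 lower genes every MS mouse lay below every SR mouse, against 123 of all genes tested (0.669%). Called genes were chosen by their group difference in the same mice, so these larger shares follow from the choice and add no support.

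The 2 directions held different kinds of gene. Higher genes had a median transcript length of 2171 bases and a median SR level of 25.4 CPM, and 151 of the 159 were protein coding. Lower genes had a median length of 3957 bases and a median SR level of 90.5 CPM, and 60 of the 71 were protein coding. All genes tested had medians of 3065 bases and 14.5 CPM. Across genes within a library, the rank correlation of level with transcript length ran from 0.438 to 0.459 in MS and from 0.436 to 0.455 in SR, ranges that overlap.

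These calls depended on single libraries and single number sets. Without MS 54972 only 3 genes passed as higher (Gng5, Slc5a3 and Cyb561) and 2 as lower, of which Klhl34 was also among the 71, so every other gene named as called lost its call there. Without SR 54952 the counts rose to 564 higher and 117 lower. With MS 54971 included they were 116 and 35, of which 87 and 33 were among the 230. DESeq2 called 489 genes higher (3.03% of those it tested) and 260 lower (1.61%). With counts summed within each number set, 7 genes passed as higher and 0 as lower. None of the 7 was an OXPHOS subunit, cytosolic ribosomal protein, ER chaperone or synapse list gene, and no mitochondrially encoded mRNA passed. Without the MS set starting at 54970, 0 genes passed in either direction.

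Gng5 had the smallest p of all genes. It encodes a gamma subunit of heterotrimeric G proteins, which relay signals from receptors at the cell membrane, and lies at chr3:146499807-146505572 (GRCm38, plus strand). The MS mice held 9.85, 12.2, 9.44, 9.65 and 10.8 CPM (54970, 54972, 55066, 55067 and 55068, the order used for MS values throughout). The SR mice ran from 5.66 through a median of 6.74 to 7.79 CPM. Every MS mouse lay above every SR mouse, as did MS 54971 at 9.18 CPM. The log2 fold change was 0.63 (SE 0.08, edgeR adjusted p = 0.00609), the call held in 28 of 31 alternative settings, and the highest adjusted p among them was 0.238, with a choroid plexus term.

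**Figure D1:**
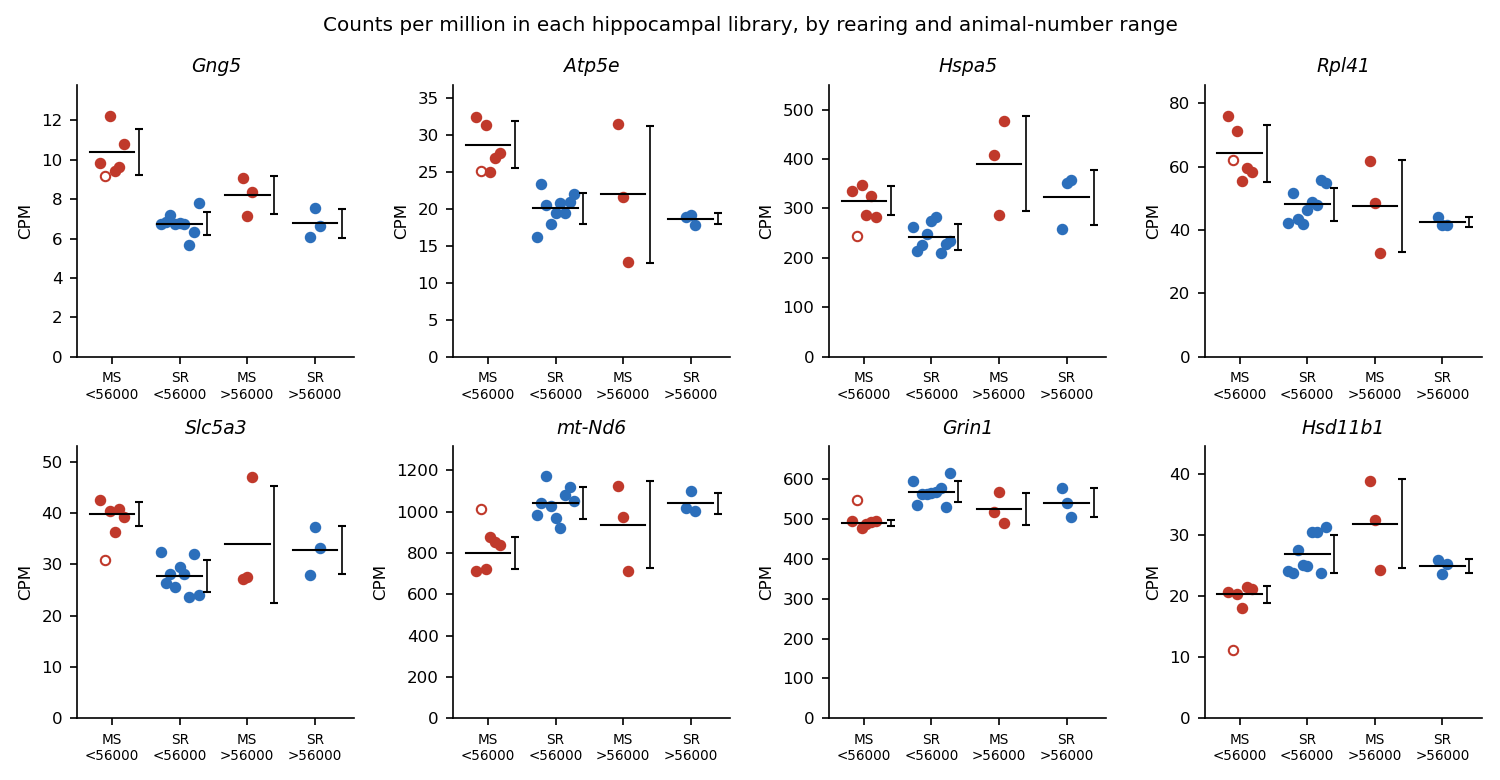
Level (CPM) of 8 genes in each mouse, with MS and SR mice below animal number 56000 in the first pair of columns and those above it in the second; lines and bars are the mean and SD without MS 54971, the open circle. Gng5, Atp5e and Slc5a3 show the 5 MS mice of the first range above all 9 SR mice, while mt-Nd6, Grin1 and Hsd11b1 show them below.

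Slc5a3, a sodium-coupled transporter that brings the osmolyte myo-inositol into cells, shared the smallest adjusted p. MS mice held 42.6, 40.4, 36.3, 40.8 and 39.3 CPM, and SR mice 23.6 to 32.3 (median 28.1), with no overlap. Its log2 fold change was 0.53 (SE 0.07, edgeR adjusted p = 0.00609). Slc5a3 shares exon bases with Mrps6 on the same strand, and Mrps6, a mitochondrial ribosomal protein gene, was also called (0.32). Cyb561, an electron carrier of secretory vesicle membranes, was at 62.7 to 69.6 CPM in MS and 40.1 to 55.9 in SR, a log2 fold change of 0.48 (edgeR adjusted p = 0.00978). Rabac1, which acts in vesicle traffic with Rab proteins, was at 90.6 to 99.4 CPM in MS and 75.2 to 85.3 in SR, a log2 fold change of 0.25 (edgeR adjusted p = 0.00978). In all 3 genes the groups did not overlap.

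Nuclear-encoded OXPHOS subunits gave more higher genes than any other group of lists. Of 80 subunits tested, 22 rose and 0 fell, 72 had a log2 fold change above 0 (49.6% of all genes tested were above 0 and 50.4% below), and the median was 0.17. In 8 subunits every MS mouse lay above every SR mouse, against 0.462% of all genes tested. Complex I counted 8 higher of 36 (median 0.14), complexes II to IV 9 of 26 (median 0.20) and ATP synthase 5 of 18 (median 0.20). The count of 22 fell to 0 without MS 54972, to 4 without MS 55067, to 7 without MS 55068 or SR 55062, and to between 10 and 12 without MS 54970, SR 55000, SR 54950 or SR 54951. With whole number sets left out it fell to 0 (MS set at 54970), 4 (MS set at 55066), 3 (SR set at 55062), 8 (SR set at 54950) and 12 (SR set at 55000). SR 54952, the SR mouse with the most choroid plexus RNA, lay below every MS mouse in 21 of the 22. It took part in the fit that called them, so this count is a description. MS 54971 lay above every SR mouse in 12 of the 22, and 14 of 80 passed with it in the fit.

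Atp5e, the small epsilon subunit of the ATP synthase head (chr2:174461072-174464105, minus strand), led the group. MS mice held 32.4, 31.4, 24.9, 26.8 and 27.6 CPM and SR mice 16.2 to 23.3 (median 20.5), so that the lowest MS mouse stood above the highest SR mouse. The log2 fold change was 0.52 (SE 0.08, edgeR adjusted p = 0.00978). Uqcrh, the hinge protein of complex III, was at 54.7, 53.9, 48.1, 52.3 and 55.3 CPM in MS and 40.1 to 46.9 in SR (median 43.6), a log2 fold change of 0.30 (SE 0.05, edgeR adjusted p = 0.0139). Its groups did not overlap either, nor did those of Uqcr10, another small complex III subunit (29.3 to 37.2 against 20.8 to 28.8 CPM, log2 fold change 0.41). Ndufa2, an accessory subunit of complex I, was at 21.1, 24.6, 14.7, 17.3 and 19.7 CPM in MS and 9.36 to 15.0 in SR (median 13.1), a log2 fold change of 0.63 (SE 0.11, edgeR adjusted p = 0.0183). Here MS 55066 overlapped the SR range.

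Subunits of complex IV, which passes electrons to oxygen, were also among the higher genes. Cox7a2 was at 43.4 to 48.0 CPM in MS and 32.9 to 41.7 in SR (log2 fold change 0.28), with no overlap. Cox6b1 was at 56.9 to 64.6 CPM in MS and 48.0 to 57.4 in SR (log2 fold change 0.25, edgeR adjusted p = 0.0183), and Cox4i1, the subunit with the highest level of the called ones named here, at 285 to 362 CPM against 274 to 304 (log2 fold change 0.22, edgeR adjusted p = 0.0384). Both overlapped between groups. Atp5b, the catalytic beta subunit of ATP synthase, did not pass the test, and was at 913 to 961 CPM in MS and 871 to 946 in SR (log2 fold change 0.07, edgeR adjusted p = 0.317).

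mRNAs encoded in the mitochondrial genome lay lower in MS. All 13 had a log2 fold change below 0 (median -0.22), and 4 passed the test. In 8 every MS mouse lay below every SR mouse, against 0.669% of all genes tested. Summed over the 13, MS libraries held 35786 to 43585 CPM and SR libraries 45686 to 50211 CPM, without overlap. The MS mean was 41096 CPM (SD 3142, n = 5) and the SR mean 47616 CPM (SD 1585, n = 9), so MS stood at 86.3% of SR. An exact two-sided permutation test over mice gave p = 0.000999 (0.002 after adjustment over 2 sums), the smallest that 5 against 9 can give. Over the 5 number sets the exact permutation p was 0.2, again the smallest possible. The p over mice follows from the lack of overlap. Lists were chosen with earlier results of these data known, so both p-values are descriptive. MS 54971 went the other way, at 57837 CPM.

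mt-Nd6, a complex I subunit and the 1 mRNA of the 13 encoded on the mitochondrial light strand (chrM:13552-14070, minus strand), showed the largest fall. MS mice held 714, 723, 878, 852 and 840 CPM, and SR mice 923 to 1174 (median 1039). Every MS mouse lay below every SR mouse, and the log2 fold change was -0.37 (SE 0.06, edgeR adjusted p = 0.0183). It lies opposite mt-Nd5, and the strand setting of the counting is not given in the sources used here. mt-Nd4 was at 3715 to 4626 CPM in MS and 4980 to 5644 in SR (log2 fold change -0.27, edgeR adjusted p = 0.0239). mt-Atp6, an ATP synthase subunit, was at 3878 to 5060 CPM against 5448 to 5955 (log2 fold change -0.28, edgeR adjusted p = 0.0283), and mt-Cytb of complex III at 3485 to 4429 CPM against 4575 to 5045 (log2 fold change -0.22, edgeR adjusted p = 0.0469). None of the 3 overlapped between groups.

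The most abundant of the 13, mt-Co1 of complex IV, did not pass, at 10114 to 11677 CPM in MS and 11710 to 13380 in SR (log2 fold change -0.16, edgeR adjusted p = 0.0995), although its groups did not overlap. Gm28439 and Gm10925 are nuclear copies on chromosome 1 whose sequences match mt-Nd4 and mt-Atp6. They moved with them (log2 fold changes -0.26 and -0.29), so reads may be split between gene and copy. The count of 4 called mRNAs fell to 1 without MS 55067 (mt-Nd6) and to 1 without MS 54972, where none of these 4 passed and another of the 13 did, to 2 without SR 55062 or SR 54951, and to 0 with MS 54971 included. Mitochondrial ribosomal proteins, by comparison, counted 2 higher and 0 lower of 76 (median 0.04), tricarboxylic acid cycle and pyruvate entry genes 1 higher of 22 (Mpc2, a pyruvate carrier subunit, 0.21), and glycolysis 0 of 16 (median -0.02, with 2 higher and 2 lower at an unadjusted p under 0.05). Protein import held 2 higher genes, Tomm7 (0.65) and Timm13 (0.27), and 1 lower, Timm9 (-0.18), of 27.

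**Figure D2:**
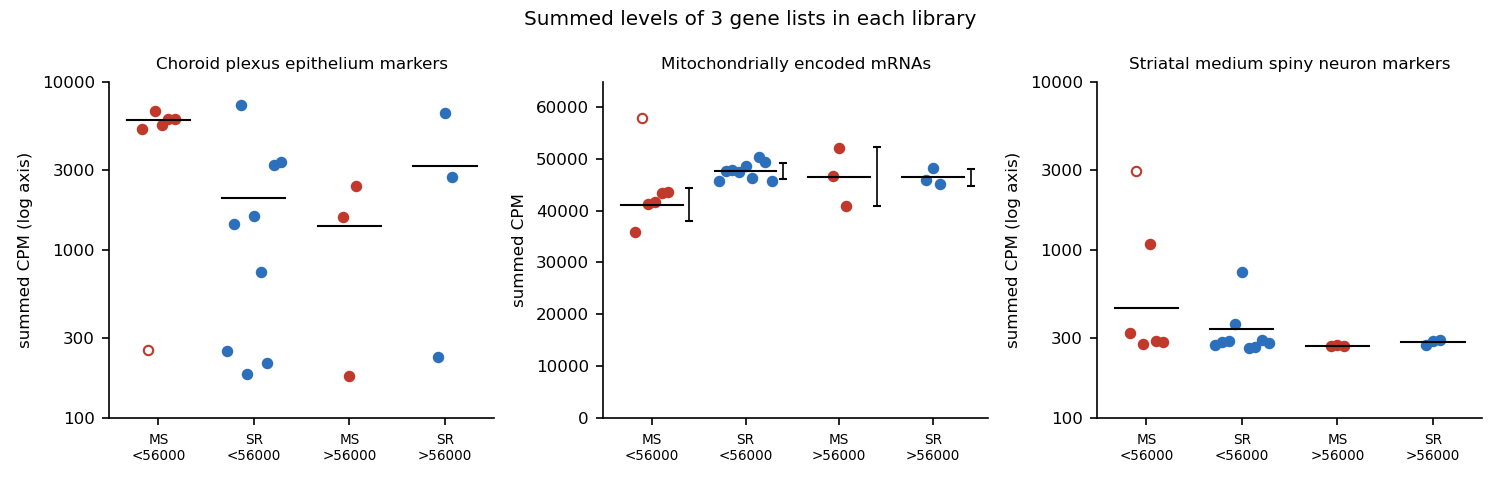
Summed CPM of choroid plexus markers, mitochondrially encoded mRNAs and striatal markers in each mouse of both ranges of animal numbers, with the 2 outer panels on a log axis; lines are means and, in the middle panel, bars are SDs, both without MS 54971, the open circle. In the first range the mitochondrial sum reaches 43585 CPM in MS and starts at 45686 CPM in SR, while the choroid plexus sum of SR 54952 is 7297 CPM, above all MS mice.

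ER chaperones and folding enzymes rose in MS, while no gene of the ER stress sensors passed the test. Of 23 tested, 8 rose and 0 fell (21 above 0, median 0.20). In 4 every MS mouse lay above every SR mouse, against 0.462% of all genes tested. The promoters of 5 of the 8 are shown because they hold the ER stress response element (ERSE; CCAAT and CCACG with 9 bases of any kind between them), the element through which ATF6 with NF-Y induces these genes. The windows run from 250 bases before to 50 after the RefSeq start, on GRCm38.p6, 5′ to 3′ on the strand of the gene, with the element in capitals on whichever strand it was found. They lie at chr2:34771840-34772139 (Hspa5, plus), chr14:118937682-118937981 (Dnajc3, plus), chr12:17266339-17266638 (Pdia6, plus), chr8:84846882-84847181 (Calr, minus) and chr10:86705395-86705694 (Hsp90b1, minus).
Hspa5: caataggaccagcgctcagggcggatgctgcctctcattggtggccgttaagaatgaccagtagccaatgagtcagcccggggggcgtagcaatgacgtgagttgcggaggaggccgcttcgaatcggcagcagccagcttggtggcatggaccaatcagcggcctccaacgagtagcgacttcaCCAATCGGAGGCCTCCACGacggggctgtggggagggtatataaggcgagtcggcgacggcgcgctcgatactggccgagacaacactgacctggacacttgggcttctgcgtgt
Dnajc3: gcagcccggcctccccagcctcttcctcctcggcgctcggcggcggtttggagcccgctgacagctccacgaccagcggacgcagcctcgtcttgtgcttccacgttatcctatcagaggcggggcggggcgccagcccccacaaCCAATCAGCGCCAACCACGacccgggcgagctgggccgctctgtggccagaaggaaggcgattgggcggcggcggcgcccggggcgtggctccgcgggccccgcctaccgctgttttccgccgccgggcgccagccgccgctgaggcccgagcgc
Pdia6: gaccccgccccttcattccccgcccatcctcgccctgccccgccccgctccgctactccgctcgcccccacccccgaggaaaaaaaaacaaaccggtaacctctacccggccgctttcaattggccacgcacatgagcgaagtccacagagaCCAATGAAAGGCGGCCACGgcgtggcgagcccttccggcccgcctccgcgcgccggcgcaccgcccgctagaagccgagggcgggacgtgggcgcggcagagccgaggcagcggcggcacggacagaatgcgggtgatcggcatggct
Calr: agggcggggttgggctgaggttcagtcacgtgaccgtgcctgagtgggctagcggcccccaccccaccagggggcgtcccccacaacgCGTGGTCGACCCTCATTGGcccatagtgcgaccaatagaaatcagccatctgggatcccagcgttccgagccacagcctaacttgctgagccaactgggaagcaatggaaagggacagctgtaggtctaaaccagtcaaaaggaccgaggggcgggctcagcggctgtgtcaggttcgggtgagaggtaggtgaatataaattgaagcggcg
Hsp90b1: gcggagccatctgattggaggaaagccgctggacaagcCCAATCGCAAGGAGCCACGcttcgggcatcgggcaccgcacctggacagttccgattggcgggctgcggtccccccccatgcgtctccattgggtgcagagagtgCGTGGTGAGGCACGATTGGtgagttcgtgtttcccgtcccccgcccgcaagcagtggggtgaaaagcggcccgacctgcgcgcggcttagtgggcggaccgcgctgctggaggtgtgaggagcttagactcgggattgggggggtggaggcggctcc

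The element was found in 22 of 12520 promoters of tested genes (0.176%), on either strand, and in 7 of the 18 list members, of 23, that had a promoter entry. These were 5 of 7 called members and 2 of 11 not called (Canx and Creld2). Pdia3 and Pdia4 rose without these exact letters in this window. In all, 5 of 123 promoters of higher genes and 0 of 52 of lower genes held it. The related ERSE-II (ATTGG and CCACG with 1 base between them, either strand) was in 9 of 12520 promoters (0.0719%), and in the list only in that of Dnajb11, which was not called. A match to these letters describes the sequence and is no evidence of binding.

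Hspa5 (BiP), the main ER chaperone and regulator of the stress sensors, was at 335, 347, 287, 326 and 282 CPM in MS and 209 to 283 in SR (median 235). Only MS 55068 fell inside the SR range, and the log2 fold change was 0.39 (SE 0.07, edgeR adjusted p = 0.0239). Dnajc3, its co-chaperone and an inhibitor of the sensor kinase PERK, was at 81.3, 75.8, 72.6, 72.2 and 72.8 CPM in MS and 55.0 to 67.3 in SR (median 60.7), a log2 fold change of 0.31 (SE 0.05, edgeR adjusted p = 0.0153). Its groups did not overlap. Manf, a secreted factor released under ER stress, was at 43.9, 47.5, 37.6, 44.9 and 37.4 CPM in MS and 28.8 to 37.3 in SR (median 30.6), a log2 fold change of 0.38 (SE 0.07, edgeR adjusted p = 0.0232), the lowest MS mouse standing just above the highest SR mouse.

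The disulfide isomerases, which form and rearrange disulfide bonds, rose alongside. Pdia4 was at 58.4 to 66.1 CPM in MS and 39.9 to 57.2 in SR (log2 fold change 0.41, edgeR adjusted p = 0.0193), and Pdia3 at 163 to 185 CPM against 134 to 162 (log2 fold change 0.23, edgeR adjusted p = 0.0183). Neither overlapped between groups. Pdia6 was at 102 to 127 CPM against 84.3 to 103 (log2 fold change 0.29, edgeR adjusted p = 0.0206). The calcium-binding chaperones Calr (343 to 399 against 303 to 351 CPM, log2 fold change 0.19, edgeR adjusted p = 0.0409) and Hsp90b1 (260 to 305 against 226 to 271 CPM, log2 fold change 0.22, edgeR adjusted p = 0.0242) overlapped.

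Of 16 sensor and PERK arm genes none passed (median 0.04), with 4 higher and 1 lower at an unadjusted p under 0.05. Xbp1, the transcription factor downstream of the sensor IRE1, had a log2 fold change of 0.22 (edgeR adjusted p = 0.164), Atf6 -0.15 (0.203), Ern1, which encodes IRE1, 0.14 (0.202), and Ddit3, the pro-apoptotic target of PERK, -0.04 (0.863), each with its edgeR adjusted p in parentheses. Among neighbouring lists, 1 gene was higher in each of translocon (Dad1, 0.29, of 26), cytosolic heat shock (Hspb8, 0.42, of 30) and proteasome (Sem1, 0.36, of 32). At an unadjusted p under 0.05, 5, 14 and 3 genes of these lists were higher, against 9.53% of all genes tested. Log2 fold changes were above 0 in 21 translocon, 27 heat shock and 18 proteasome genes (medians 0.05, 0.08 and 0.01). In MS 54971 none of the 8 called chaperones exceeded every SR mouse, and with it in the fit 4 of 23 passed. The count of 8 fell to 0 without MS 54972, to 1 without MS 55067 and to 3 without MS 54970. It was also 0 without either MS set or without the SR set starting at 55062.

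Some cytosolic ribosomal protein genes rose in MS, by small amounts. Of 79 tested, 11 rose and 0 fell, 74 were above 0, and the median was 0.14 for the large and 0.14 for the small subunit. Only Rpl18 showed every MS mouse above every SR mouse (72.7 to 80.2 against 60.7 to 70.0 CPM, log2 fold change 0.21, edgeR adjusted p = 0.0239). Rpl41, which encodes the smallest protein of the large subunit, was at 76.0, 71.4, 55.5, 59.6 and 58.5 CPM in MS and 42 to 55.7 in SR (median 48.0), a log2 fold change of 0.43 (SE 0.08, edgeR adjusted p = 0.0239). MS 55066 overlapped the SR range by a small margin. Rps27 (0.38), Rps12 (0.28), Rps9 (0.26) and Rplp1 (0.33), named on the log2 scale, were also called.

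MS 54971 lay above every SR mouse in 11 of the 11 called ribosomal genes and in 70 of all 159 higher genes. With it in the fit 12 of 79 passed. Its library differs in tissue content, so its position is a description. The count of 11 fell to 0 without MS 54972 or MS 54970, to 1 without MS 55067, to 5 or 6 without SR 55062 or MS 55068, and to 7 without SR 54950, SR 54951 or SR 55000. Ribosomal genes have many processed copies. Rpl35a itself did not pass (log2 fold change 0.29, edgeR adjusted p = 0.0664), while its copies Rpl35a-ps3, Rpl35a-ps4 and Rpl35a-ps6 had log2 fold changes of 0.90, 0.97 and 0.92. The counting could split reads among them, and their values are uncertain for that reason. In all, 20 of the 230 called genes had a near-identical transcript of another gene, and 25 shared exon bases with a gene on the same strand. On the opposite strand 75 did, among them Ndufa2, Cox4i1, Pdia3 and Pdia6. Without a stated strand setting, reads of these pairs may not be separated.

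**Figure D3:**
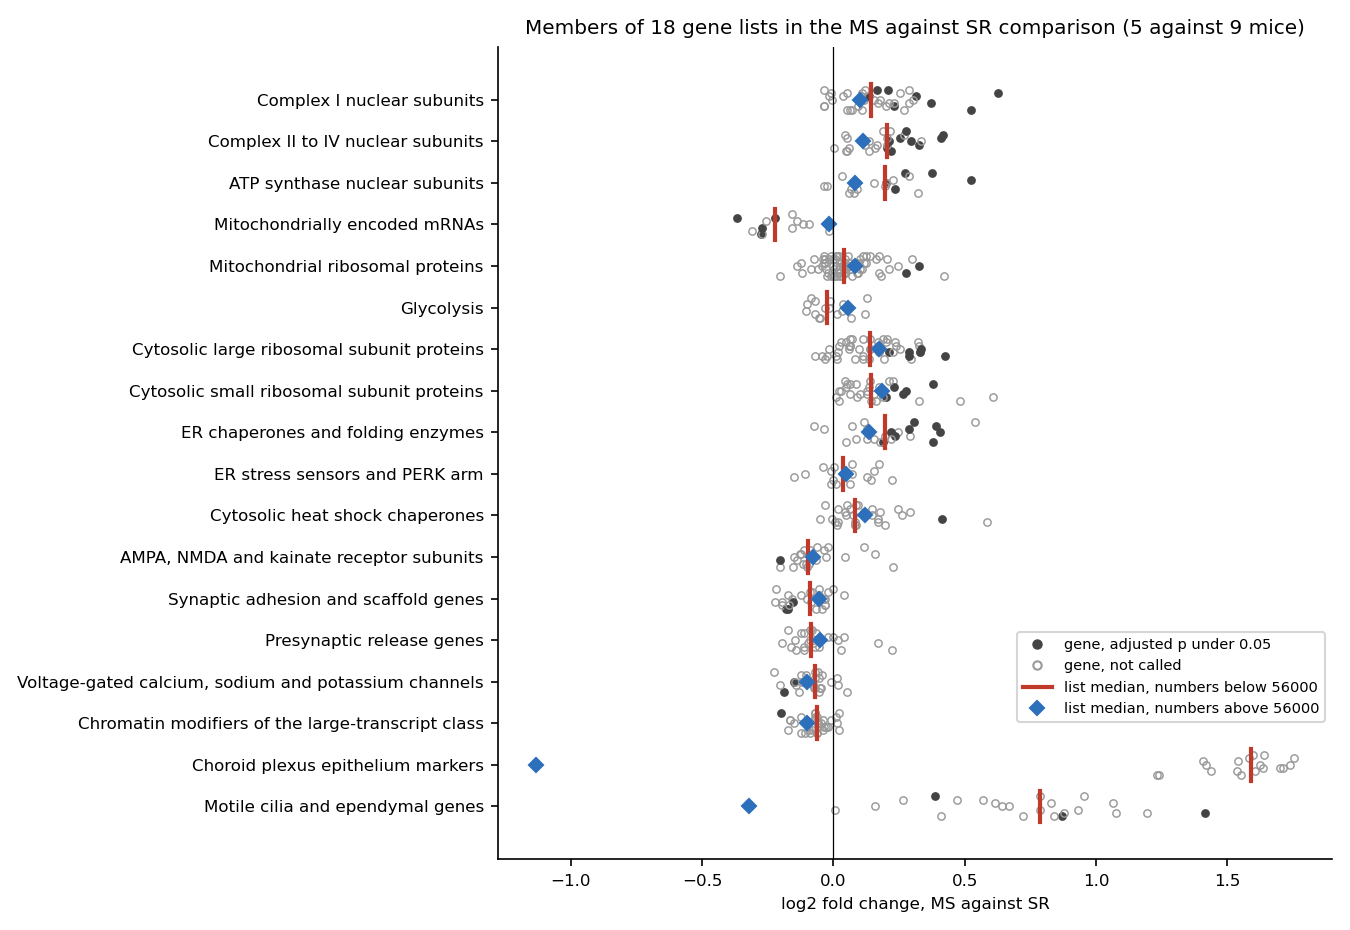
Log2 fold change (MS over SR) of every tested gene in 18 gene lists, with filled points for an edgeR adjusted p under 0.05; the red line is the list's median in the mice below 56000 and the blue diamond its median in the mice above. OXPHOS, ribosomal and ER chaperone lists sit to the right of 0 in both ranges, while the choroid plexus list has a median of 1.59 in the first and -1.13 in the second.

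Several synapse genes were slightly lower in MS. Of 109 genes in the 5 synapse and channel lists, 6 fell and 0 rose, 17 were above 0, and the median was -0.08. In 5 of the 109 every MS mouse lay below every SR mouse, against 0.669% of all genes tested. A fall of this kind was not particular to the synapse lists. Of 33 chromatin modifier genes with large transcripts, 29 were below 0 (median -0.06) and 9 were lower at an unadjusted p under 0.05. Chd9 was the 1 called (log2 fold change -0.20, edgeR adjusted p = 0.0384). In 3 of the 33 every MS mouse lay below every SR mouse. Grin1, the obligatory subunit of NMDA receptors (chr2:25291181-25319187, minus strand), was at 495, 477, 488, 492 and 495 CPM in MS and 530 to 614 in SR (median 565), a log2 fold change of -0.20 (SE 0.04, edgeR adjusted p = 0.0183). Dlg4 (PSD-95), the main postsynaptic scaffold, was at 727, 727, 707, 727 and 723 CPM in MS and 790 to 882 in SR (median 815), a log2 fold change of -0.18 (SE 0.03, edgeR adjusted p = 0.0206). In both the MS mice were tightly grouped below the lowest SR mouse. Grin1os, antisense to Grin1, moved the same way (log2 fold change -0.28, edgeR adjusted p = 0.0384), and without a stated strand setting the pair cannot be told apart.

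The other synapse genes called lay close to these in size. Dlgap2, which binds PSD-95, was at 63.9 to 68.8 CPM in MS and 71.8 to 78.1 in SR (log2 fold change -0.15), and Cacna1d, an L-type calcium channel, at 71.0 to 79.2 CPM against 80.7 to 86.8 (log2 fold change -0.15), both with an edgeR adjusted p = 0.0384 and no overlap. Nrxn3, a presynaptic adhesion gene (log2 fold change -0.17), and Cacna1a, the P/Q-type calcium channel of nerve terminals (-0.19), overlapped between groups. GABA-A receptor subunits gave 0 calls of 12 (median -0.04, 2 lower at an unadjusted p under 0.05). The count of 6 fell to 0 without MS 54972 or MS 55067, to 2 without SR 55062, SR 54950, SR 54951 or SR 55000, and to 3 without SR 55063, MS 55068 or MS 54970. With MS 54971 included, 1 of 109 passed.

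Among lower genes outside these lists, Klhl34, an X-linked gene of the kelch family, was at 78.4, 87.0, 72.3, 78.1 and 81.7 CPM in MS and 88.3 to 100 in SR (median 94.5), a log2 fold change of -0.24 (SE 0.04, edgeR adjusted p = 0.0183). Its groups did not overlap. Sept5, a septin of presynaptic terminals, was at 141 to 163 CPM in MS and 168 to 202 in SR (log2 fold change -0.27, edgeR adjusted p = 0.0192), and Kcnip4, which modulates A-type potassium channels, at 32.3 to 36.9 CPM against 38.3 to 47.5 (log2 fold change -0.27, edgeR adjusted p = 0.0206). Neither overlapped, although Sept5 shares exon bases with Gp1bb. Gm15446 (-0.36) and Zfp932 (-0.28) are zinc finger genes with near-identical transcripts, and the counting could split reads between them (values on the log2 scale). The largest falls were those of the low-level genes Gm45634 (log2 fold change -0.98, 0.439 to 0.774 CPM in MS against 0.767 to 1.46 in SR) and Gm44799 (-0.73, 2.51 to 4.00 CPM against 4.16 to 7.79).

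Few stress hormone genes passed the test. Hsd11b1, the enzyme that regenerates active glucocorticoid inside cells, was at 20.7, 20.3, 18.0, 21.5 and 21.1 CPM in MS and 23.8 to 31.3 in SR (median 25.1), a log2 fold change of -0.39 (SE 0.08, edgeR adjusted p = 0.0239), with no overlap. It was the 1 gene called of 16 stress hormone and CRH receptor and binding protein genes (median -0.09). The glucocorticoid receptor Nr3c1 had a log2 fold change of -0.01 (edgeR adjusted p = 0.971), and its co-chaperone Fkbp5 0.07 (edgeR adjusted p = 0.759). Among 19 glucocorticoid-induced genes, Mt1, a metallothionein that binds zinc, was the 1 that passed (65.8, 89.1, 66.8, 70.8 and 74.9 CPM in MS, 49.8 to 68.7 in SR, log2 fold change 0.34, edgeR adjusted p = 0.0366). MS 54970 and MS 55066 overlapped the SR range. Of antioxidant genes, the copper chaperone Atox1 (0.49) and thioredoxin, Txn1 (0.27), were higher of 21. Immediate early genes gave 0 calls of 18 (median 0.09, but -0.09 without MS 54970) and circadian clock genes 0 of 17 (median -0.03), with 0 and 3 lower at an unadjusted p under 0.05 and none higher.

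Some genes the study itself singled out on libraries that include these cannot serve as independent evidence, and their values are given for description. Serpinh1, a collagen chaperone also expressed in meninges, was at 26.2, 35.3, 28.7, 30.4 and 26.6 CPM in MS and 14.5 to 24.4 in SR, a log2 fold change of 0.58 (SE 0.12, edgeR adjusted p = 0.036) with no overlap. Tent5a, a poly-A polymerase, was called (log2 fold change 0.44, edgeR adjusted p = 0.0426). Zfp46 (-0.41), Hist1h4i (0.83), Etfbkmt (0.47), Gm10060 (0.75), Pla2g4e (-0.41) and Eps8l1 (-0.33), on the log2 scale, missed the threshold with edgeR adjusted p of 0.0557, 0.0534, 0.0638, 0.0908, 0.118 and 0.121.

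Choroid plexus RNA differed between the groups and has to be read beside all of these results. All 18 choroid plexus markers were above 0 on the log2 scale (median 1.59), and 0 passed the test, with 10 higher at an unadjusted p under 0.05 and a smallest edgeR adjusted p of 0.0831. Their summed level was 5213 to 6689 CPM in MS and 182 to 7297 in SR (median 1430), 290% of SR in the mean (exact two-sided permutation p = 0.00599 over mice, adjusted over 2 sums 0.00599, and 0.2 over sets). The SR range enclosed the MS range, because SR 54952 held 7297 CPM. Ttr, the thyroid hormone carrier that choroid plexus makes in bulk, was at 2835, 3761, 3074, 3233 and 3387 CPM in MS and 10.5 to 4084 in SR (median 729), a log2 fold change of 1.63 (SE 1.05, edgeR adjusted p = 0.481). In bulk tissue, more cells of a type and more RNA per cell cannot be told apart.

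Genes of motile cilia, borne by ependymal and choroid plexus cells, moved with it. All 23 were above 0 (median 0.79) and 3 passed. Spef1, which organizes the central pair of the axoneme, was at 14.6, 13.0, 14.2, 13.2 and 11.7 CPM in MS and 9.53 to 10.9 in SR (median 10.5), a log2 fold change of 0.38 (SE 0.06, edgeR adjusted p = 0.0175) with no overlap. It shares exon bases with Cenpb. 1700007K13Rik (0.87, edgeR adjusted p = 0.0271) and Tmem212 (1.41, edgeR adjusted p = 0.0493), on the log2 scale, were the others. The largest rises of all called genes were also of low-level genes, Cltrn (log2 fold change 2.19, 0.730 to 1.73 CPM in MS against 0.0401 to 0.865 in SR) and Gm13807 (2.06, 0.488 to 0.958 CPM against 0 to 0.28).

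SR 54952 held more choroid plexus RNA than any MS mouse. It lay below every MS mouse in 124 of the 159 higher genes, among them 21 of 22 OXPHOS, 11 of 11 ribosomal and 8 of 8 ER chaperone genes. It lay above every MS mouse in 69 of the 71 lower genes, including 4 of 4 mitochondrially encoded and 6 of 6 synapse genes. In the other 35 higher genes it stood at or above the lowest MS mouse. These include Tspo, an outer mitochondrial membrane protein (5.44 CPM in SR 54952, 5.11 to 7.26 in MS), the protease inhibitor Spint2 (35.7 CPM, 34 to 39.3 in MS), Cltrn, the acyl-CoA synthetase Acss3, Cd63 and Bsg. SR 54952 took part in the fit and in choosing the genes, so these counts are a description, and the part of choroid plexus RNA in the called differences was not tested by them.

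With the choroid plexus score as a term in the fit, 0 genes were called in either direction, against 1047 higher and 1019 lower at an unadjusted p under 0.05. The markers summed to 5213 CPM or more in every MS mouse, and of SR mice only SR 54952 exceeded 3328 CPM. Score and rearing therefore largely coincide, and the loss of calls cannot tell them apart. In the fit with the term, 70 of 80 OXPHOS subunits, 72 of 79 ribosomal protein genes and 21 of 23 ER chaperones were above 0, and 0 of 13 mitochondrially encoded mRNAs. The median log2 fold change over all genes in it was 0.008. For the same reason these directions cannot tell score and rearing apart either. Synapse genes moved toward 0, with 42 of 109 above 0 against 17 without the term.

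Markers of other cell types gave few calls. Of the marker lists for astrocytes, microglia, oligodendrocytes and their precursors, dentate granule cells, CA pyramidal neurons and interneurons, none held a called gene. Dentate granule cell markers had a median of -0.22, with 2 of 14 lower at an unadjusted p under 0.05. Endothelial and pericyte markers held 1 called gene of 18, Bsg (0.31), and meningeal and fibroblast genes 1 of 16, Serpinh1. Neocortical, thalamic and habenular, and hemoglobin lists held no call. Striatal markers had a median of 0.66 with 0 of 13 called and 0 at an unadjusted p under 0.05. That median was -0.36 without MS 55066 and 1.87 with MS 54971 included. Without MS 55066 and SR 55001 the counts over all genes were 139 higher and 53 lower.

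The mice with animal numbers above 56000, 3 MS (56999 to 57001) and 3 SR (57137 to 57139), were set beside the first range. They are too few to show that a difference recurs. Each condition is a single number set there. In the fit over both ranges 0 of 19370 genes passed for that range, with 1272 at an unadjusted p under 0.05 (6.57%). Of the 159 higher genes, 98 had the same sign there (61.6%), and of the 71 lower genes 46 (64.8%), against 50.6% of all genes tested. The difference between ranges, tested as an interaction, passed for 0 genes (1651 at an unadjusted p under 0.05, 8.52%), while DESeq2 called 19.

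Log2 fold changes in the second range were above 0 in 34 of 36 complex I subunits (median 0.10), 25 of 26 of complexes II to IV (0.11), 16 of 18 of ATP synthase (0.08), 47 of 47 and 32 of 32 ribosomal protein genes (0.18 and 0.19) and 21 of 23 ER chaperones (0.13). The same held for 9239 of all 18395 genes tested. Members of a list were measured in the same few mice and can move together. Their counts are therefore not counts of replicates, and do not show that a difference recurs. Choroid plexus RNA went the other way there, with 18 of 18 markers below 0 (median -1.13) and sums of 178 to 2398 CPM in MS and 231 to 6526 in SR. Mitochondrially encoded mRNAs gave a median of -0.02, with 7 of 13 below 0. The rank correlation of level with transcript length ran from 0.411 (MS 56999) to 0.458 in MS of this range. In SR it ran from 0.446 to 0.454. The part of MS 56999 in the list counts above was not tested. Of the 124 higher genes with SR 54952 on the SR side, 91 were above 0 in the second range (median 0.12), and of the other 35, 7 were (median -0.13). Of all 18395 genes tested, 9239 were. SR 54952 took part in choosing these genes, and the part of choroid plexus RNA in this split was not tested.

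**Figure D4:**
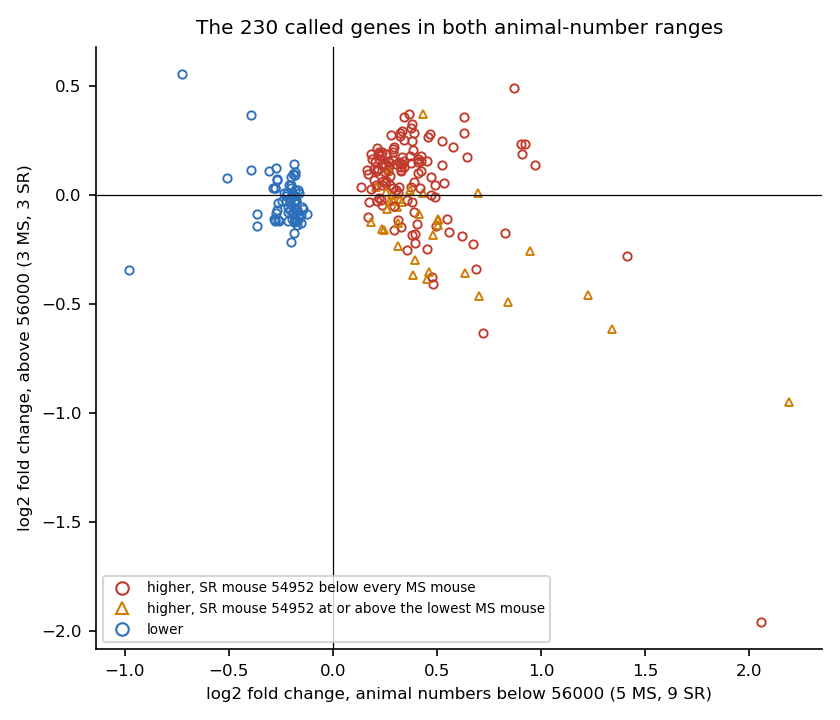
Log2 fold change (MS over SR) of the 230 called genes in the mice below animal number 56000 (horizontal) and above it (vertical); triangles are the 35 higher genes in which SR 54952 stood at or above the lowest MS mouse. Of those 35, 28 lie below 0 on the vertical axis, against 9156 of all 18395 genes tested.

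Single genes varied in direction between the ranges. Gng5 had a log2 fold change of 0.28 in the second range, Atp5e 0.24, Hspa5 0.28 and Manf 0.32, all in the same direction as in the first. The 3 MS mice were far apart there, with Atp5e at 31.4, 21.5 and 12.9 CPM against 17.8 to 19.2 in SR, so the groups overlapped. Slc5a3 was near 0 at 0.05, and so was Dnajc3 at 0.02. Cyb561 stood at -0.41 and Hsd11b1 at 0.36, opposite to the first range, with interaction edgeR adjusted p of 0.284 for both. Grin1 was at -0.03 and Dlg4 at 0.09.

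**Figure D5:**
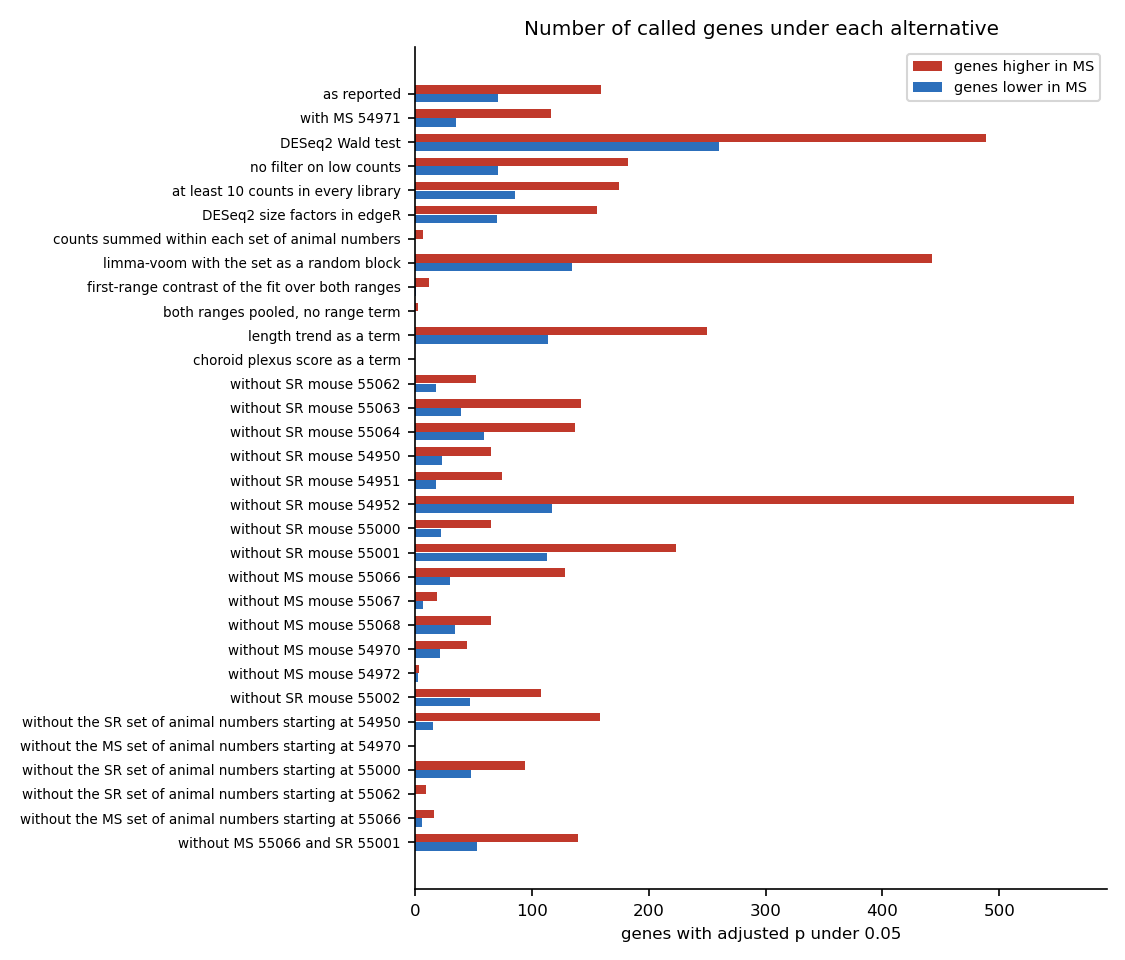
Number of genes called higher or lower in MS (edgeR adjusted p under 0.05 unless the setting names another tool) under each alternative setting. The counts run from 0 higher and 0 lower with a choroid plexus term or without the MS set starting at 54970 to 564 higher without SR 54952.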

How the data were processed

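Poly-A RNA of whole hippocampus (TRIzol, NEBNext Ultra II Directional kit) was sequenced by the study in paired ends. The deposited file holds raw read counts per gene for 21 libraries, made by the authors with STAR 2.7.3a on GRCm38 and featureCounts. The strand setting is not given in the sources used here. Genes with near-identical copies or shared exons may therefore exchange reads.

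All 55487 genes carried a name and every column a sample. Libraries were grouped by the labels (animal number and treatment). Counts of the first range were filtered with filterByExpr (minimum count 10), scaled by TMM and fitted in edgeR 4.0.16 (R 4.3.3, limma 3.58.1) by a robust quasi-likelihood test without covariates, 5 MS against 9 SR, p-values adjusted by Benjamini-Hochberg over 18395 genes (threshold 0.05). The biological coefficient of variation was 12.2%. Levels are CPM on TMM-scaled library sizes. Total counts of the 21 libraries were 17276810 to 30449055. The authors left out 1 library, used DESeq2 and weighted p-values by IHW. Here DESeq2 1.42.0 was an alternative.

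The difference between number ranges was an interaction term over 20 libraries. The summed CPM of mitochondrially encoded mRNAs and of choroid plexus markers were compared by exact permutation. Their p-values are descriptive, and the sums of other lists were not tested. Named genes were those with the smallest p, the largest changes, the leading members of each list, and genes the study names. Members and lists were chosen with earlier results of these data known, and some named examples after their values were seen. The scripts were tested on simulated counts. Alternatives covered tool, scaling, filter, covariates, pooling, and leaving out each mouse or number set. Promoters were RefSeq windows of 300 bases (GRCm38.p6), and gene positions and lengths came from GENCODE vM21.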

Additional observations from a re-analysis of the deposited data

Results flagged for a closer look

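Of 208 groups of mice examined over the genes named here and the marker sums, 14 held 1 library whose distance from the next was large against the range of its group. Chance alone gives about 1 in 20 groups. SR 54952 was the highest SR mouse for the choroid plexus sum (7297 CPM, next 3328), for Ttr (4084 CPM), Acss3 (3.26 CPM) and Cltrn (0.865 CPM). MS 55066 was the highest MS mouse for the striatal sum (1086 CPM) and for Tmem212 (5.46 CPM), and the lowest for Atp5d (109 CPM), Tent5a (9.38 CPM) and Dlg4 (707 CPM). SR 55001 was the highest SR mouse for the striatal sum (743 CPM), Hsp90b1 (271 CPM) and Nr3c1 (102 CPM). MS 54972 was the highest MS mouse for Tspo (7.26 CPM) and the lowest for Dlgap2 (63.9 CPM).

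In 2 called genes every MS mouse lay on one side of every SR mouse in the first range and on the other side in the second. Timm9, a mitochondrial import chaperone, had a log2 fold change of -0.18 in the first range and 0.10 in the second (interaction edgeR adjusted p = 0.368). Gm44799 had -0.73 and 0.55 (interaction edgeR adjusted p = 0.284). Neither difference passed the test.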

How the results depend on the processing

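Called genes among those named kept their direction under the alternatives run, while the number of calls varied widely. Over 104 genes and the alternatives, 3213 values were recomputed, of which 2038 stayed on their side of the threshold, 1141 lost the call and 34 gained it. Some genes that were not called crossed 0, such as Ttr (1.63, and -0.61 with a choroid plexus term), Fkbp5 (0.07, lowest -0.03), Ddit3 (-0.04, highest 0.07) and Nr3c1 (-0.01, highest 0.05). Against 159 higher and 71 lower genes, DESeq2 gave 489 and 260, voom with a random effect for the number set 442 and 134 (correlation within a set -0.0289), a length trend term 250 and 114, the first-range contrast of the fit over both ranges 12 and 1, both ranges pooled 2 and 0 (893 lower at an unadjusted p under 0.05), and counts summed within sets 7 and 0 (1749 and 1066 at an unadjusted p under 0.05). A choroid plexus term gave 0 and 0. Including MS 54971 gave 35 lower. Without the MS set starting at 54970 the counts were 0 and 0 (1295 and 847 at an unadjusted p under 0.05, with DESeq2 not run on this subset), without the MS set at 55066 16 and 6, without the SR set at 55062 9 and 0 (1067 lower at an unadjusted p under 0.05), without the SR set at 55000 94 higher, and without the SR set at 54950 15 lower.

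Leaving out 1 mouse gave 3 (without MS 54972) to 564 (without SR 54952) higher genes and 2 to 117 lower genes with the same mice left out. Higher genes also fell to 19 without MS 55067, 44 without MS 54970, 52 without SR 55062, 65 without MS 55068, SR 54950 or SR 55000 and 74 without SR 54951. Lower genes fell to 7 without MS 55067, 18 without SR 55062 or SR 54951, 21 without MS 54970, 22 without SR 55000, 23 without SR 54950, 30 without MS 55066, 34 without MS 55068, 39 without SR 55063 and 47 without SR 55002, and rose to 113 without SR 55001. The cause was not tested. The interaction gave 19 genes with DESeq2, 1 without a filter and 0 to 2 when single mice were left out (2 without SR 57137 or MS 57001). The choice to leave out MS 55066 with SR 55001 was made after the data were seen. No paired analysis was possible because the animal numbers are unique and no number is shared between groups. Genes near 1 CPM rest on few reads, and their folds are the least certain.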
